A study of Mus musculus with 10 samples.

Results

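Extracellular nucleotides signal through a family of cell-surface receptors, and the gene group described here holds 8 of these receptors and 2 enzymes that break their ligands down: P2ry14, P2ry1, P2ry2, P2ry6, P2ry12, P2ry13, P2rx4, P2rx7, Entpd1 and Nt5e. They are 10 of the 18193 genes measured, and every probe set annotated to exactly 1 of them was used, which gave 19 of 45037 probe sets. The group was put together with the results of this comparison known: P2ry14 was picked for its higher signal in mutant glomeruli, and the others belong to the same signalling system. The difference of P2ry14 between the genotypes is therefore described and not tested. Glomeruli came from unweaned male mice aged 27 days on an FVB/N background after 4 backcross generations, isolated after magnetic beads had been perfused through the heart. One genotype carried 1 knock-in copy of the R394W allele of Wt1, a missense allele present in every cell of the animal (Wt1 +/R394W, 5 mice, called mutant), and the other consisted of wild-type littermates (Wt1 +/+, 5 mice). R394W is the common Denys-Drash syndrome mutation of WT1, a DNA-binding zinc finger protein that podocytes need throughout life. The submitters chose mutants with little protein in the urine and no mesangial lesions, so the comparison asks how transcripts differ at an early stage of the disease model.

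P2Y receptors are coupled to G proteins, whereas P2X receptors are cation channels opened by ATP. Cells release ATP, UTP and UDP-sugars when stretched, damaged or activated, and enzymes on the cell surface turn ATP into ADP, AMP and finally adenosine. In the kidney this system is known for its part in renal blood flow, tubular transport and inflammation. P2Y14, the product of P2ry14, responds to UDP-glucose and related UDP-sugars and couples to inhibitory G proteins, and it has been described in intercalated cells of the collecting duct.

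Values are log2 expression values (robust multi-array average, RMA), 1 array per mouse. Array medians ran from 6.31 to 6.39, pairwise correlations from 0.985 to 0.997, and 0 pairs of arrays were identical. The median of all probe-set means was 6.36 and their 25th percentile 4.73, so signals near or below 5 are at the dim end, where RMA compresses differences. Podocyte markers gave strong signals in both genotypes, with Nphs1 at 12.97 ± 0.10 (SD, n = 5) in wild types and 12.89 ± 0.15 (SD, n = 5) in mutants. Differences are mutant mean minus wild-type mean in log2 units with the standard error (SE) of the limma fit, and a probe set was called at an adjusted p under 0.05 over all probe sets. Nothing in the labels tells whether mice shared a litter, and in glomerular RNA fewer cells of a type and less RNA per cell cannot be told apart.

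P2ry14 was the 1 member with a large difference. Its only probe set (1424733_at, chromosome 3) read 5.46, 5.18, 5.38, 5.27 and 4.97 in wild types 1 to 5. In mutants 1 to 5 it read 7.06, 7.32, 6.73, 6.61 and 7.49. The genotypes were far apart: the lowest mutant lay above the highest wild type, mutants 5 and 2 were the highest, and wild type 5 was the lowest. The means were 5.25 ± 0.19 (SD, n = 5) and 7.04 ± 0.37 (SD, n = 5), and the difference of 1.79 ± 0.16 (SE) corresponds to a 3.46-fold higher signal, with a 95% interval from 2.69 to 4.44-fold. The wild-type mean was below the median of all probe-set means, and the mutant mean was above it. Wild-type values were near the dim end, where RMA compresses differences, so the fold and its interval describe signal and not transcript number. P2ry14 ranked 16 of 18193 genes by the size of its rise and 13 among the 103 genes called higher (0.566% of all genes); these ranks and its adjusted p of 0.000275 (limma) are the values for which the gene was chosen. Over all probe sets 0.853% were called. With 1 probe set there is no second measurement of the transcript on these arrays.

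**Figure D1:**
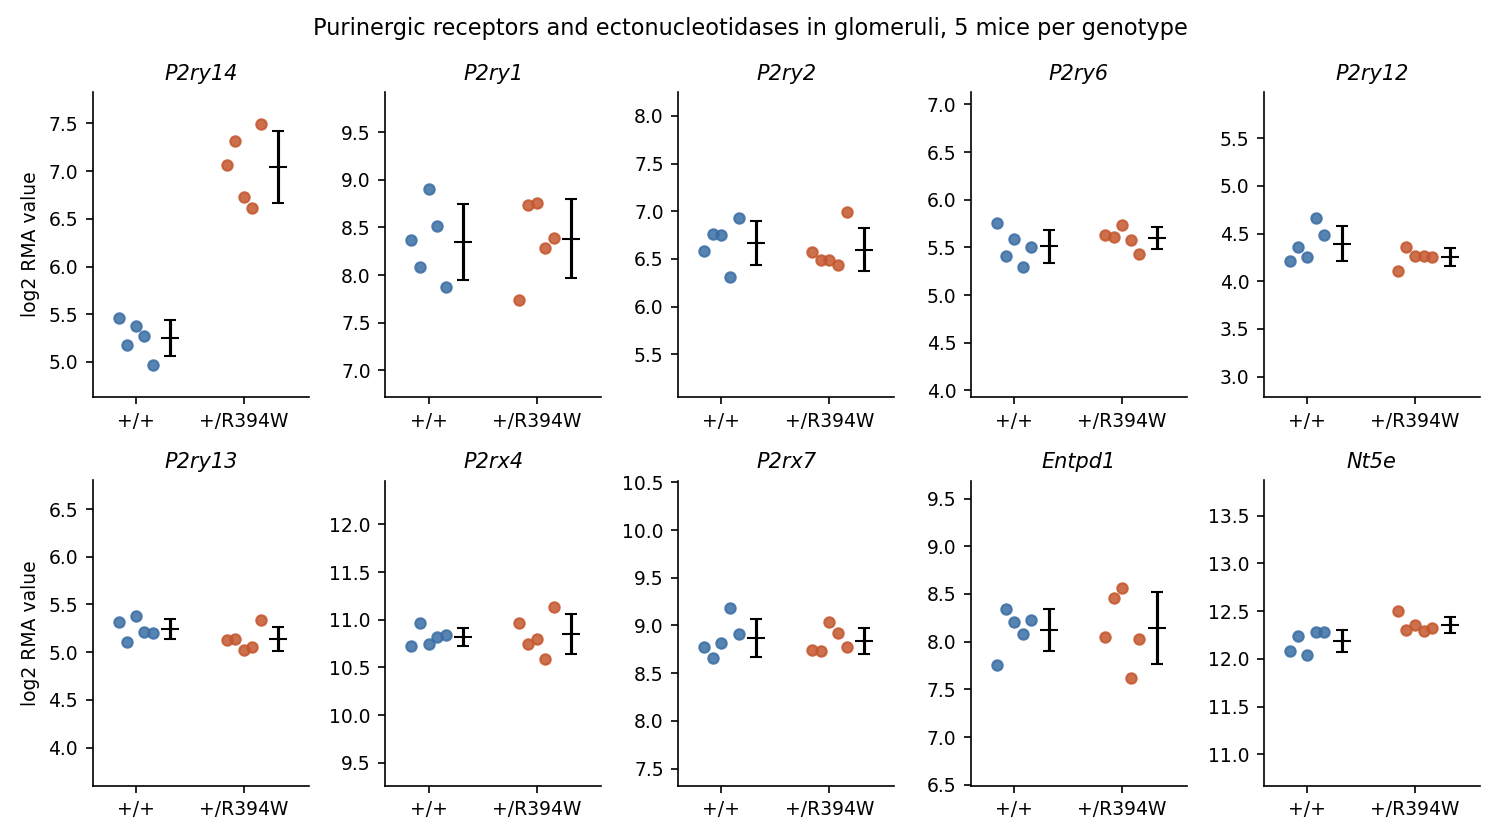
Log2 RMA values of the 10 genes, by their brightest probe set, in 5 wild-type (+/+, blue) and 5 mutant (+/R394W, orange) mice; the black bar is the mean with 1 SD, and each panel spans the same number of log2 units. Wild types lie between 4.97 and 5.46 for P2ry14 and mutants between 6.61 and 7.49, whereas the genotypes of the other genes lie at similar heights.

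The RefSeq promoter table (GRCm38.p6) holds 4 start sites for P2ry14, and which of their transcripts the probe set reads is not given in the sources used here. Because WT1 binds G-rich DNA, the windows from 250 bases before to 50 after each start were searched on both strands for a strict motif, GCGNGGGNG, and a looser one that contains it, GNGNGGGNG. The 2 windows of P2ry14 with a match are shown 5′ to 3′ on the minus strand of the gene, with matches of the looser motif in capitals. The first lies at chr3:59153443-59153742 and the second at chr3:59131279-59131578.
P2ry14 start 1: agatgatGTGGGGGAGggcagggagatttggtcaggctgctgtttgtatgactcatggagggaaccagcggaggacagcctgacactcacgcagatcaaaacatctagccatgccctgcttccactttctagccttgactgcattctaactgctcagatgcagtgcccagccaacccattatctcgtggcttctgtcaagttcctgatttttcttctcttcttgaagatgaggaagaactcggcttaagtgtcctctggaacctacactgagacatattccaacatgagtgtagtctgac
P2ry14 start 2: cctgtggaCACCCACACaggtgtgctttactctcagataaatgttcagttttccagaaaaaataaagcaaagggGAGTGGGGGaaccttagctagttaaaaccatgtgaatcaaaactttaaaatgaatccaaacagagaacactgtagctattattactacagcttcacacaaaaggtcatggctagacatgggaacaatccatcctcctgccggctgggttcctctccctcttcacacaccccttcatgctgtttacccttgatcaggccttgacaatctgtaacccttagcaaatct
The first window has 1 match, GTGGGGGAG, whose first base is at position -243 counted from the start. The second has 2, GAGTGGGGG on the strand shown and GTGTGGGTG on the other strand. Neither window holds the strict motif, which 12.3% of all 32851 promoter windows contain. The looser motif is in 39.6% of them and in 7 of the 15 windows of the 9 members listed (P2ry6 has no entry), so its presence at P2ry14 is common. Among the members the strict motif was found in 1 window, that of P2rx7. These matches describe letters only, and binding was not measured.

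None of the 3 ADP receptors on chromosome 3, the chromosome of P2ry14, was called. P2ry12 encodes the ADP receptor of platelets and microglia, the target of clopidogrel. Its probe set read 4.21, 4.36, 4.25, 4.66 and 4.49 in wild types and 4.11, 4.36, 4.27, 4.27 and 4.26 in mutants, a difference of -0.14 ± 0.09 (SE, limma adjusted p = 0.689). The ranges overlap, and all 10 values are dim. P2ry13, another ADP receptor coupled to inhibitory G proteins, read 5.32, 5.11, 5.38, 5.21 and 5.20 in wild types. In mutants it read 5.13, 5.14, 5.02, 5.05 and 5.34, a difference of -0.11 ± 0.08 (SE, adjusted p = 0.748). The ranges overlap, and mutant 5 was the highest of the mutants. P2ry1, the ADP receptor that raises intracellular calcium, read 8.37, 8.08, 8.90, 8.51 and 7.87 in wild types and 7.74, 8.74, 8.76, 8.28 and 8.39 in mutants. Its difference was 0.04 ± 0.22 (SE, adjusted p = 0.977), with a 95% interval from -0.45 to 0.52. P2ry1 varied most from mouse to mouse within a genotype: its SD of 0.41 compares with 0.14 for the median probe set and 0.29 at the 90th percentile, and the mice of each genotype spanned about 1 log2 unit.

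P2ry14, P2ry13 and P2ry12 are transcribed from the minus strand and lie inside the span of Med12l, which is on the plus strand and encodes a Mediator subunit. From 3 genes before this cluster to 3 after P2ry1, 37 genes are annotated and 12 were measured. Among the 8 that are not members, 0 of 15 probe sets were called by limma and 1 had an unadjusted p under 0.05, against 9.36% of all probe sets. That one was 1452864_at of Med12l, with 4.98 ± 0.15 (SD, n = 5) in wild types and 5.36 ± 0.21 (SD, n = 5) in mutants, a difference of 0.38 ± 0.11 (SE, adjusted p = 0.196). The other Med12l probe sets differed by -0.01 ± 0.09 (SE) and 0.09 ± 0.07 (SE), and which strand the 3 probe sets read is not given in the sources used here. Sucnr1, the succinate receptor, had the widest difference of the 15 at 0.59 ± 0.31 (SE, adjusted p = 0.609), with overlapping genotypes from 4.15 to 5.20 and from 4.68 to 6.45. Mbnl1, a splicing regulator, had a smaller difference, 0.14 ± 0.07 (SE, adjusted p = 0.597) at its brightest probe set. The median difference of the 15 was 0.09, beside 0.00 over all probe sets.

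**Figure D2:**
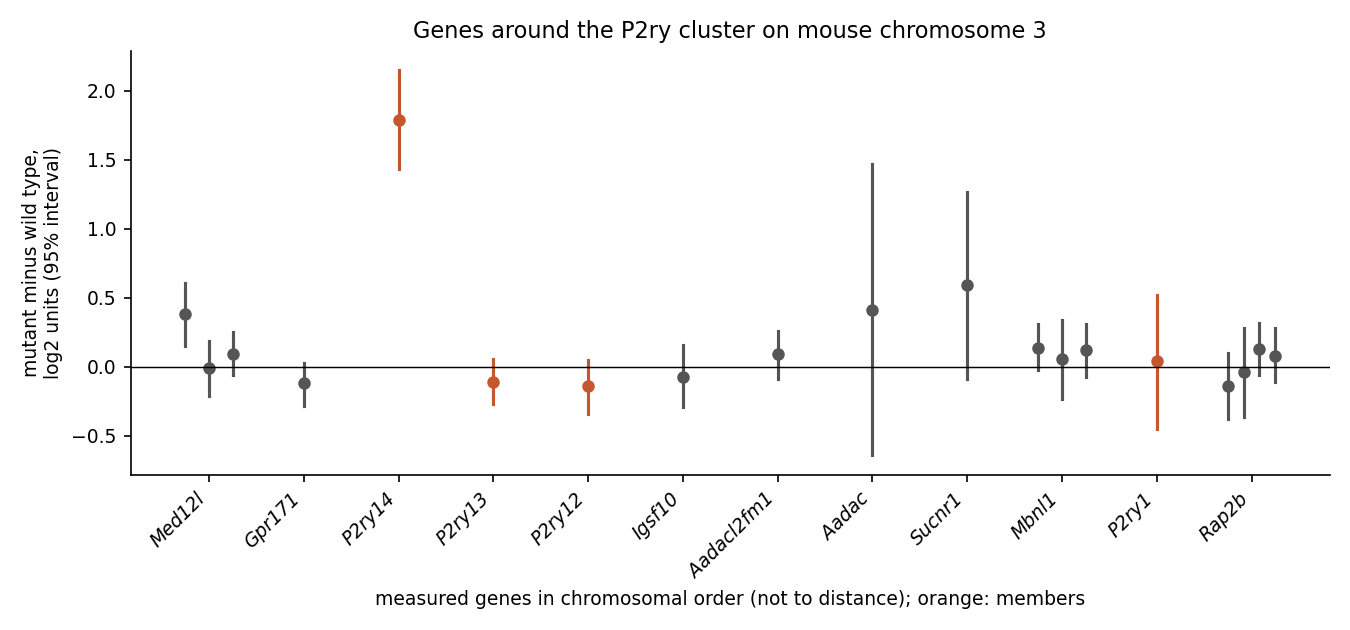
Difference between genotypes (log2 units, dots) with the 95% interval of the limma fit (lines) for every measured gene around the P2ry cluster, in chromosomal order; several dots per gene are its probe sets, and members are orange. P2ry14 stands at 1.79, and no interval of another gene lies wholly above 0.5.

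The pyrimidine-sensitive receptors P2ry2 and P2ry6 were measured by 1 probe set each. P2ry2, which answers to ATP and UTP, read 6.58, 6.76, 6.75, 6.31 and 6.93 in wild types and 6.57, 6.49, 6.49, 6.44 and 6.99 in mutants. Mutant 5 stood above the other mutants, and the difference was -0.07 ± 0.13 (SE, adjusted p = 0.908). P2ry6, the UDP receptor, read 5.76, 5.41, 5.59, 5.30 and 5.50 in wild types and 5.63, 5.61, 5.74, 5.58 and 5.43 in mutants. Its genotypes overlapped throughout, with a difference of 0.09 ± 0.09 (SE, adjusted p = 0.836). The 95% intervals ran from -0.36 to 0.21 for P2ry2 and from -0.11 to 0.29 for P2ry6, well below the 1.79 of P2ry14.

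The ATP-gated channels were likewise close between genotypes. P2rx4, a channel of endothelium, macrophages and epithelia, read 10.72, 10.97, 10.75, 10.82 and 10.84 in wild types and 10.97, 10.75, 10.80, 10.59 and 11.13 in mutants at its brightest probe set (1425525_a_at). The difference was 0.03 ± 0.10 (SE, adjusted p = 0.957), and mutants held both the lowest and the highest value. The 3 other P2rx4 probe sets differed by 0.05 ± 0.11, -0.09 ± 0.09 and -0.14 ± 0.11 (SE). P2rx7, the channel that triggers the inflammasome at high ATP, read 8.77, 8.66, 8.82, 9.18 and 8.91 in wild types and 8.74, 8.73, 9.04, 8.92 and 8.77 in mutants (1439787_at). Its difference was -0.03 ± 0.10 (SE, adjusted p = 0.962), and those of its other 2 probe sets were 0.14 ± 0.12 and -0.01 ± 0.15 (SE). Once genotype means were taken off, the 3 P2rx7 probe sets correlated over the 10 arrays at 0.58 to 0.86. For P2rx4, 3 probe sets correlated at 0.67 to 0.78, while 1446429_at did not go with them (-0.19 to 0.01). Probe sets of a gene share their arrays, so these values describe agreement between measurements and not between samples.

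Of the ectonucleotidases, Entpd1 encodes CD39, which removes phosphates from ATP and ADP, and Nt5e encodes CD73, which turns AMP into adenosine. Entpd1 read 7.76, 8.34, 8.21, 8.08 and 8.23 in wild types and 8.05, 8.46, 8.56, 7.62 and 8.03 in mutants (1453586_at), a difference of 0.02 ± 0.17 (SE, adjusted p = 0.983). Its 3 probe sets agreed over mice (correlations of 0.80 to 0.91 with genotype means removed), with mutants 2 and 3 high in all of them, and the other 2 differed by 0.01 ± 0.12 and 0.05 ± 0.13 (SE). Nt5e was the member nearest to a call after P2ry14. At 1428547_at it read 12.08, 12.24, 12.04, 12.28 and 12.28 in wild types and 12.50, 12.30, 12.36, 12.29 and 12.32 in mutants. The genotypes did not overlap, although the highest wild types and the lowest mutant differ only in the last digit, and the difference of 0.17 ± 0.07 (SE) had an unadjusted p of 0.0350 and an adjusted p of 0.480. A second probe set, 1422974_at, differed by 0.18 ± 0.08 (SE, adjusted p = 0.499) with 1 wild type (10.67) inside the mutant range, and the third, dimmer one by -0.09 ± 0.07 (SE, adjusted p = 0.787). Groups were separate in 2.78% of all probe sets.

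Over the 9 genes other than P2ry14, 0 of 18 probe sets were called by limma, beside 0.853% of all probe sets, and 2 of 18 had an unadjusted p under 0.05, beside 9.36%. Differences ran from -0.14 to 0.18 with a median of 0.02, 10 of them positive and 8 negative, and adjusted p-values from 0.480 to 0.991. The 95% intervals reached at most from -0.45 to 0.52, both for P2ry1, and from -0.37 to 0.41 over the other genes. A change of signal beyond 1.43-fold upward or 1.36-fold downward lies outside the interval of each of these probe sets, and smaller changes can be missed with 5 mice per genotype. These bounds hold for RMA signals, which compress transcript changes of dim genes such as P2ry12.

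**Figure D3:**
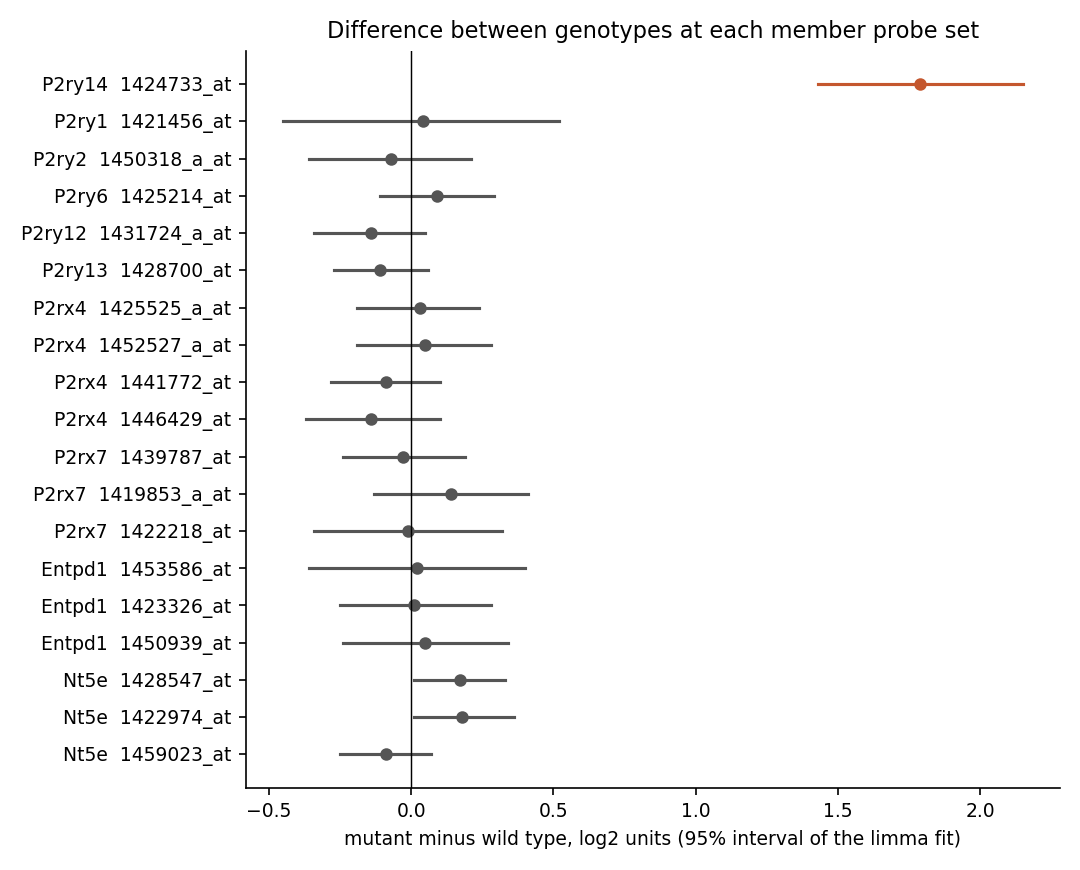
Difference between genotypes in log2 units (dots) with 95% intervals of the limma fit (lines) at all 19 probe sets, labelled by gene and probe set; the called one is orange. P2ry14 lies at 1.79 and the other 18 between -0.14 and 0.18.

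Other genes of purinergic signalling were taken from a fixed list of 53, of which 44 were measured. By 1 probe set per gene, 0 were called by limma, where 1.26% of all genes were, and 10 had an unadjusted p under 0.05, where 11.0% of all genes had. The median difference was 0.01. The genotypes did not overlap in 5 of the 44 (P2rx1, P2rx5, Gyg, Entpd3 and Entpd5), beside 3.67% of all genes. Among 9 other receptors P2rx1, the ATP-gated channel of vascular smooth muscle, differed most. It read 9.79, 9.92, 9.53, 10.01 and 10.04 in wild types and 10.39, 10.16, 10.29, 10.76 and 11.16 in mutants. The genotypes did not overlap, but the difference of 0.70 ± 0.18 (SE) had an adjusted p of 0.143. Its second probe set differed by 0.60 ± 0.20 (SE, adjusted p = 0.296) with overlap. Mutant 5, the highest for P2rx1, also had the highest mean of the mesangial and smooth muscle markers (11.21, other mice 10.70 to 11.05). The median difference of that list was 0.03. Its smooth muscle genes Acta2 and Tagln differed by 0.89 ± 0.27 and 0.77 ± 0.28 (SE), highest in mutant 5 (13.29 and 12.04), and Myh11 by 0.13 ± 0.20 (SE). The part of smooth muscle content in the P2rx1 difference was not tested. P2rx5, another ATP-gated channel, differed by 0.21 ± 0.07 (SE, adjusted p = 0.295) and the oxoglutarate receptor Oxgr1 by 0.19 ± 0.08 (SE, adjusted p = 0.486). The 1 adenosine receptor measured, Adora3, differed by -0.07 ± 0.12 (SE, adjusted p = 0.901).

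In the 7 genes that make or use UDP-glucose, a ligand of P2Y14, no call was made and the median difference was 0.00. Ugp2, which makes UDP-glucose, differed by 0.06 ± 0.06 (SE, adjusted p = 0.835), and Ugdh, which oxidises it, by 0.20 ± 0.08 (SE, adjusted p = 0.482). Gyg, encoding glycogenin, the primer of glycogen synthesis, read 11.37 ± 0.19 (SD, n = 5) in wild types and 11.73 ± 0.17 (SD, n = 5) in mutants without overlap, a difference of 0.36 ± 0.11 (SE, adjusted p = 0.229). Its second probe set differed by 0.41 ± 0.13 (SE, adjusted p = 0.262). Of 11 nucleotide- and nucleoside-metabolising enzymes, the adenosine kinase gene Adk (0.24 ± 0.07 SE, adjusted p = 0.227), Entpd3 (-0.17 ± 0.05 SE, adjusted p = 0.273) and the purine nucleoside phosphorylase gene Pnp (0.14 ± 0.06 SE, adjusted p = 0.419) had the smallest p-values. In 8 transporters and release channels the lowest p-values were those of the nucleoside transporter genes Slc29a1 (-0.21 ± 0.12 SE, adjusted p = 0.675), Slc28a3 (-0.12 ± 0.08 SE, adjusted p = 0.744) and Slc29a2 (-0.13 ± 0.10 SE, adjusted p = 0.778). The 8 G protein alpha subunits ranged from -0.07 to 0.17, with Gnas (-0.07 ± 0.06 SE), Gna11 (0.07 ± 0.07 SE) and Gnai1, an inhibitory subunit (0.17 ± 0.18 SE), at adjusted p-values of 0.760, 0.827 and 0.836.

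**Figure D4:**
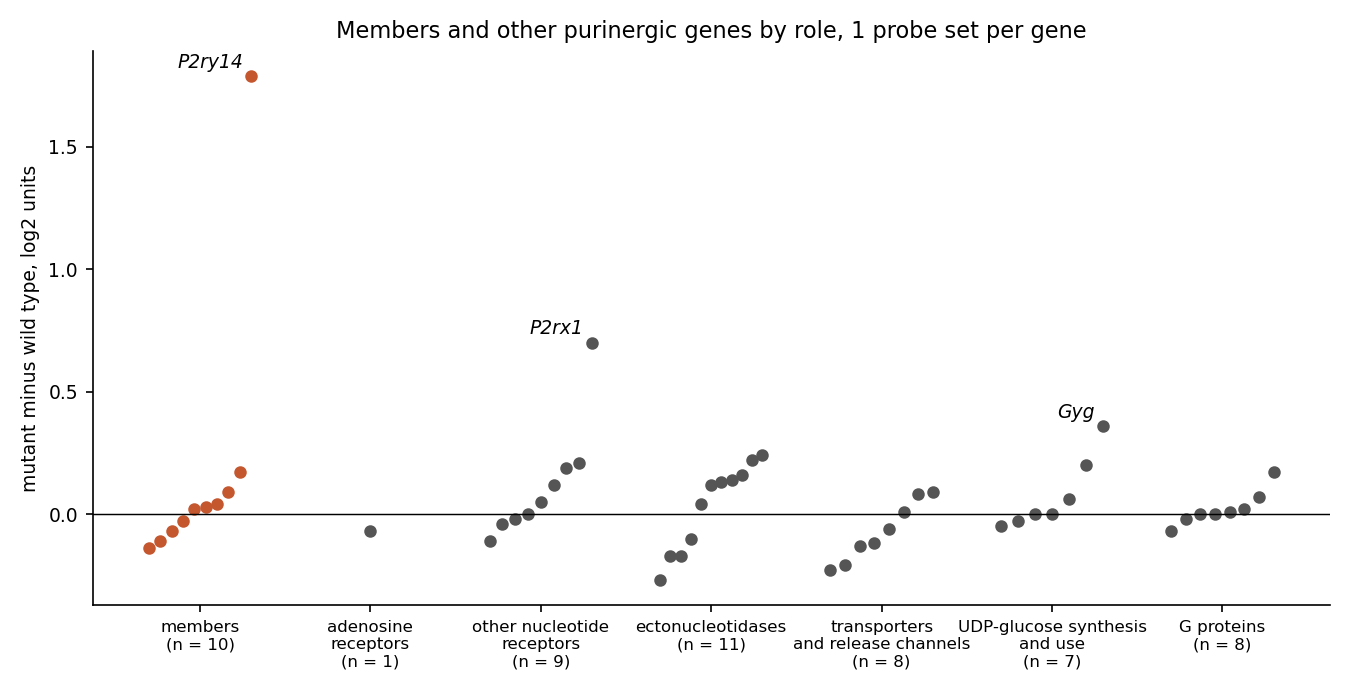
Difference between genotypes in log2 units for the 10 members (orange) and 44 other purinergic genes (grey) grouped by role, 1 probe set per gene, ordered by size within a group. P2ry14 (1.79) is followed by P2rx1 (0.70) and Gyg (0.36), which were not called, and all others lie between -0.27 and 0.24.

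The genes most like P2ry14 were sought by Pearson correlation over the 10 arrays with 1 probe set per gene, as a description without a test. They were Marveld1 (r = 0.991), Cntnap2 (0.975), Rbfox1 (0.972), Cadm1 (0.957) and Tada2a (0.957), and all 5 separated the genotypes. Cntnap2 and Cadm1, adhesion molecules, and the splicing factor gene Rbfox1 were called higher in mutants, by 2.49 ± 0.18, 2.29 ± 0.16 and 2.14 ± 0.14 (SE, adjusted p at most 6.6e-05). Marveld1 and Tada2a differed less, by 0.24 ± 0.05 and 0.19 ± 0.05 (SE), and were not called (adjusted p = 0.0768 and 0.186). Because such correlations mostly reflect the gap between genotypes, they were repeated with the genotype means taken off. Tmem30a (r = 0.934), Marveld1 (0.932), Pla2g2c (0.917), Ap1ar (0.908) and Gm10941 (0.883) then led, so that Marveld1 was in both sets, whereas Cadm1 dropped to 0.34. With 10 arrays and 18193 genes, correlations of this size among the leading genes carry no statement about shared function.

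**Figure D5:**
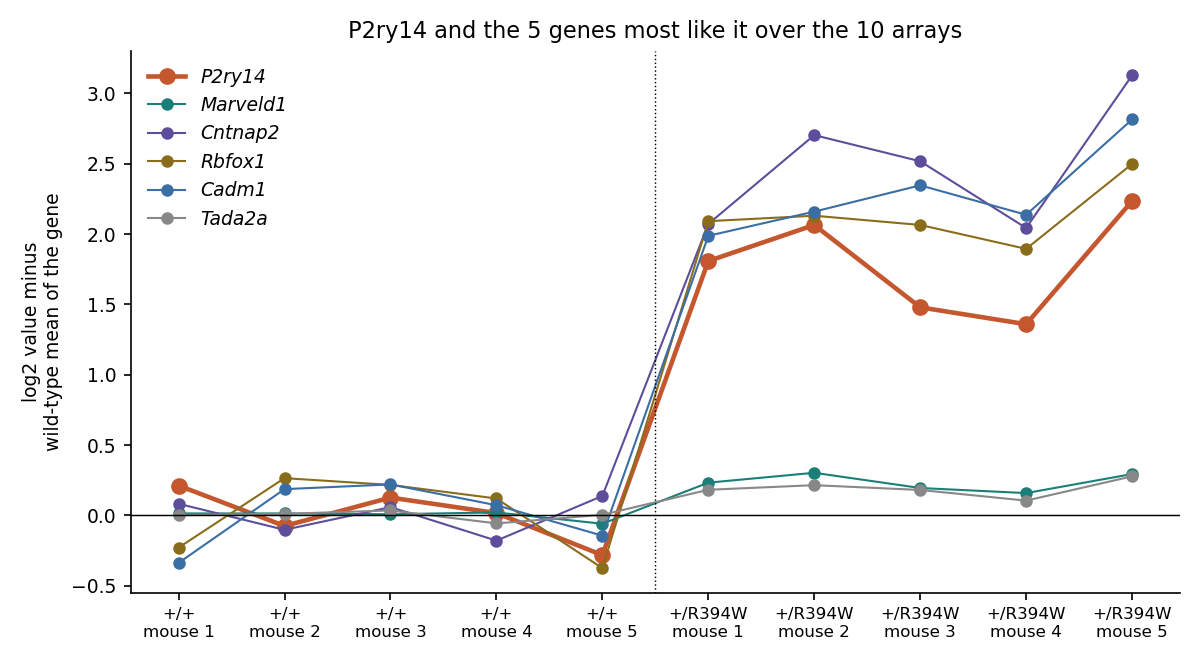
Log2 value minus the wild-type mean of each gene in the 5 wild-type (+/+) and 5 mutant (+/R394W) mice, for P2ry14 and the 5 genes most correlated with it; lines join values of a gene and imply no order of mice. The deviation of P2ry14 is smaller than those of Cntnap2, Rbfox1 and Cadm1 in every mutant, and mutant 5 is the highest for these 4 genes.

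The mean levels of marker lists for cell types that could carry these transcripts overlapped between the genotypes, with 1 exception. The mean of the 9 measured intercalated cell markers was 5.55 to 5.77 in the wild types and 5.43 to 5.75 in the mutants, with 0 of 9 called and a median difference of -0.01. One of the 9, Slc4a1, which encodes an anion exchanger, did not overlap and differed by -0.40 ± 0.12 (SE, adjusted p = 0.254). Leukocyte and macrophage markers ran from 6.19 to 6.93 and from 6.15 to 6.68; of 18 measured, only Csf1r, the receptor of macrophage colony-stimulating factor, was called, at -0.99 ± 0.17 (SE, adjusted p = 0.0220). Proximal tubule markers varied widely in both genotypes (6.77 to 9.46 and 7.04 to 10.59, 0 of 13 called), with a median difference of 0.46. Distal tubule and principal cell markers did so too (6.40 to 7.86 and 6.42 to 8.01, 0 of 12 called), with a median difference of 0.17. With the score of intercalated cells, of leukocytes or of tubule as a covariate the P2ry14 difference was 1.77, 1.79 and 1.81. These fits used 1 slope for both genotypes. P2ry14 and the intercalated cell score correlated at 0.79 in wild types and -0.61 in mutants, so a common slope could hardly move the difference. The part of cell content in it was not tested. The exception was the list of 8 platelet and megakaryocyte markers, whose mean was lower in mutants without overlap (6.80 to 6.84 and 6.59 to 6.73), with 0 of 8 called and a median difference of -0.11; with genotype means taken off, P2ry12, a platelet receptor, correlated with this mean at r = 0.12 over 10 mice (exact permutation p = 0.653, adjusted p = 0.907 over 90 relations; Spearman rho = -0.16, permutation p = 0.623, adjusted p = 0.932), and r was -0.51 without mutants 1 and 4, so no direction held. Endothelial markers ran from 11.81 to 12.01 and from 11.67 to 11.99 (0 of 12 called), mesangial and smooth muscle markers from 10.70 to 11.02 and from 10.92 to 11.21 (0 of 11), and parietal epithelial markers from 7.24 to 7.39 and from 7.10 to 7.52 (0 of 5). Podocyte markers ran from 12.44 to 12.58 and from 12.20 to 12.56, with Plce1 called lower among 10. Esam (endothelial), Cspg4 (mesangial) and Ncam1 (parietal) did not overlap either and were not called (-0.21 ± 0.07, -0.21 ± 0.06 and -0.48 ± 0.11 SE, adjusted p = 0.327, 0.249 and 0.0944). Larger differences in the same lists were positive, with overlap and no call: Acta2 and Tagln (smooth muscle, 0.89 ± 0.27 and 0.77 ± 0.28 SE, limma adjusted p = 0.243 and 0.369) and Cldn1 (parietal, 0.68 ± 0.38 SE, adjusted p = 0.649). Median differences were -0.09 for endothelial, 0.03 for mesangial and smooth muscle, and -0.05 for parietal markers.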

How the data were processed

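The values are log2 expression values per probe set that the authors deposited, made with RMA per the submitters' processing notes; its version, its settings and a genome build were not given in the sources used here. Array scans were not analysed here. RMA equalises arrays and compresses changes of dim genes. All 10 columns were matched to mice by title, with 0 columns left over. Replicate numbers only name mice.

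Of 45101 probe sets, 64 controls were left out. The platform annotation named 1 gene for 34945, several for 932 and none for 9160; 34741 matched the RefSeq table (GRCm38.p6), which served for names, chromosomes and gene order. The probe set with the highest mean represents a gene in lists.

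Genotypes were compared with limma 3.58.1 (R 4.3.3), lmFit and eBayes, without covariates, with Benjamini-Hochberg adjustment over 45037 probe sets. Correlations with marker scores used exact permutation within genotype. On simulated data of 45037 probe sets with 200 changed, 57.6%, 91.3% and 100% of changes of 0.5, 1 and 2 log2 units were recovered, and 5.86% of calls were false. Figures used matplotlib 3.10.9.

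Members, gene lists and tests were chosen with earlier results of these data known. Genes named are all members, up to 3 genes per role of the purinergic list and of the chromosomal neighbours by p-value, and the 5 genes most like P2ry14 by each measure. Entpd5, Csf1r, Plce1, Slc4a1, Esam, Cspg4, Ncam1, Acta2, Tagln, Cldn1 and the second probe sets of P2rx1 and Gyg were named after their values were seen. Alternatives covered scaling, low signal, variance model, array weights, probe-set choice, marker scores as covariates, mice with close animal numbers, thresholds and each mouse left out.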

Additional observations from a re-analysis of the deposited data

Results flagged for a closer look

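In 118 groups of 5 mice (members, named purinergic genes, neighbours and marker scores), 5 had 1 mouse set apart from the rest by more than 0.71 of the group's range, where chance gives about 1 in 20 groups; 4 of the 5 were mutant 5. P2ry2 read 6.99 in mutant 5 and 6.44 to 6.57 in the other mutants. The distal tubule and principal cell score was 6.42 in mutant 5 and 7.59 to 8.01 in the other mutants. Wild type 5 was equally low at 6.40, with the other wild types at 7.22 to 7.86, although that group was not flagged. Ugdh read 10.03 in mutant 5 against 9.71 to 9.78, and Ugp2 read 11.48 against 11.29 to 11.34. P2rx5 read 6.06 in wild type 1 and 6.28 to 6.29 in the other wild types.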

How the results depend on the processing

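The P2ry14 difference kept its direction and its call in 22 of 22 refits that contained its probe set, from 1.65 to 1.90, with adjusted p (limma) up to 0.0167. Leaving out 1 mouse at a time gave 1.68 to 1.90. Because P2ry14 was chosen for this difference in these same mice, the refits describe its dependence on processing and are not a test of it. With probe sets below the median signal left out, P2ry14 itself was removed, and 0 member probe sets were called. No other member was called in any of 397 refits (lowest adjusted p 0.215), although the sign of uncalled differences turned in 45 of them, at 8 probe sets. Purinergic genes outside the group and neighbours of the cluster also stayed at 0 calls in every alternative. The number of probe sets called over the whole array was 110 in the 7 mice of close animal numbers (wild types 2 to 4, mutants 1 to 4), 126 with their 2 runs of numbers as a block, 144 at an adjusted p under 0.01, 580 under 0.10, and 216 (without wild type 4) to 301 when 1 mouse was left out, with 242 without wild type 1. No paired analysis was possible because the labels give each mouse a number of its own and no litter.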

Other observations

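The mouse-to-mouse variation of the members, with genotype means taken off, was compared with the 9 marker scores in 90 relations over 10 mice by exact permutation within genotype (14400 arrangements, two-sided). After Benjamini-Hochberg adjustment over the 90 relations 0 passed, the lowest adjusted p being 0.153, and 12 had an unadjusted p under 0.05. P2ry2 was lower where the proximal tubule score was higher (Pearson r = -0.83, permutation p = 0.00326, adjusted p = 0.153, and Spearman rho = -0.72, permutation p = 0.0274, adjusted p = 0.308), and r was -0.43 without wild type 5 and mutant 5, so the relation rests largely on those mice. With the intercalated cell score r was -0.86 (permutation p = 0.0034, adjusted p = 0.153, rho = -0.76), and -0.59 without the same mice. With the distal tubule and principal cell score r was -0.80, and -0.21 without them. For the mesangial and smooth muscle score r was 0.80, and 0.44 without wild type 4 and mutant 5. P2ry1 was higher where the leukocyte and macrophage score was higher (r = 0.81, permutation p = 0.00778, adjusted p = 0.233; rho = 0.76, permutation p = 0.0246, adjusted p = 0.308), and r was 0.65 without wild type 3 and mutant 2. For P2ry14 the strongest of the 9 relations was with the endothelial score (r = -0.71, permutation p = 0.0536, adjusted p = 0.371; rho = -0.81, permutation p = 0.0230, adjusted p = 0.308), and r was -0.48 without mutants 3 and 5. It was followed by the mesangial and smooth muscle score (r = 0.42, permutation p = 0.273, adjusted p = 0.907; rho = 0.42, permutation p = 0.271, adjusted p = 0.786), with r at 0.22 without wild type 4 and mutant 5. The other 7 ran from r = -0.24 to 0.29, with -0.19 for intercalated cells and 0.02 for leukocytes. These r values pool both genotypes, and for several lists the genotypes differed in sign. For intercalated cells r was 0.79 in wild types and -0.61 in mutants. For distal tubule and principal cells it was 0.93 and -0.72, and for proximal tubule 0.88 and -0.68. Each of these rests on 5 mice and was not tested.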
